A study of Mus musculus with 8 samples.

Results

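The comparison of food allergy with control in App mice was drawn from single-cell RNA-seq of leukocytes sorted from mouse brain. It held 13153 cells, 6453 of the App food allergy library and 6700 of the App control library, out of 46314 cells that passed the same filters in the 8 libraries of the series. A cell was kept when it had at least 500 unique molecular identifiers (UMIs, each one a counted RNA molecule) over at least 200 genes, at most 5% of them from mitochondrial genes. Its leading hashtag antibody also had to reach 50 UMIs and 3 times the second. Kept cells were then placed in 6 gates by their own RNA, with 1 UMI of a gene being enough. The gates were T (Cd3e and Cd3d), B (Cd79a and Ms4a1), NK (Ncr1 without Cd3e), ILC2, the group 2 innate lymphoid cells (Gata3 and Il1rl1 without Cd3e), macrophage (C1qa and C1qb) and neutrophil (Csf3r with at least 10 UMIs of S100a8).

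The study asked whether inflammation of the gut changes the immune cells of the brain in a model of Alzheimer's disease. Both groups carried the App NL-G-F knock-in, a humanised and mutated App gene that gives rise to amyloid plaques, and were labelled as 16 weeks old, whereas the study's methods give 3 months. The allergy group received ovalbumin with alum into the peritoneum once a week, 3 times in all, and then ovalbumin by mouth on 7 consecutive days. The control group was given water only, so that sensitization, adjuvant, injection and feeding all fall on 1 side of the comparison. After perfusion, CD45.2+ cells were sorted from brain parenchyma and their RNA was read from the 5′ end. An antibody to CD45 had been injected into a vein to mark cells inside blood vessels, and whether marked cells were left out of the sort is not stated. Wild-type (WT) control and WT food allergy libraries, without the App alleles, were used here for the comparison between genotypes.

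Food allergy is a type 2 response. Helper T cells, ILC2s, mast cells and basophils release interleukins 4, 5 and 13, B cells switch to IgE, and eosinophils follow interleukin 5. The borders of the brain hold their own residents of these kinds, among them ILC2s, mast cells, γδ T cells and border macrophages, and the bone marrow of the skull supplies neutrophils, monocytes and developing B cells to the meninges. Amyloid plaques are surrounded by microglia that express Trem2, Apoe and Cst7.

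Each condition had 1 library, so that library and condition cannot be told apart. Within a library, 4 hashtag antibodies (numbered 4 to 7) marked separate samples, and each hashtag group was taken as 1 sample, which made 4 groups against 4. Which hashtag marked which mouse is not stated, the same number in both libraries is not stated to pair samples, and the p-values measure only the spread between hashtag groups. The groups held 1560 to 1738 cells in the control and 1064 to 2165 in the allergy library. The control library held 34164317 gene UMIs with a median of 2928 UMIs per cell, and the allergy library 37870265 with a median of 3231. The hashtag rule removed 389 and 415 cells, and 61 cell barcodes occurred in both libraries, which was 0.91% of the control and 0.945% of the allergy cells. In the gene results below, values are UMIs per 1000000 gene UMIs of the gate in that hashtag group (CPM), and groups are always given in the order of hashtags 4, 5, 6 and 7.

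The hashtag groups of each library fell into sets that differed in 10 immediate-early genes such as Fos and Jun, which respond within minutes to stimulation or handling. In the T gate these genes summed to 1029 and 827 CPM in hashtags 4 and 5 of the control and to 3803 and 4984 CPM in hashtags 6 and 7. In the allergy library the order was turned round, with 3512 and 3825 CPM in hashtags 4 and 5 and 783 and 860.2 CPM in hashtags 6 and 7. A limit of 2500 CPM separated a low from a high set of 2 groups in each library, and the set was a term in every gene model.

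The sets also differed in what cells they held. Plasma cells (at least 10 UMIs of Jchain, with Mzb1), the antibody-secreting end stage of the B lineage, made up 0.178, 0.815, 3.14 and 5.70% of the cells in the control hashtag groups and 3.17, 4.25, 0.282 and 0.508% in the allergy groups, so that the high-set groups of both libraries stood above the low-set groups. T cells with Trdc, a constant gene of the γδ T cell receptor, made up 3.05, 3.20, 15.6 and 17.3% of the T gate in the control and 10.3, 28.1, 3.35 and 5.34% in the allergy groups, again with every high-set group above every low-set group. Basophils (Mcpt8 and Fcer1a) ran the other way, at 1.13, 0.932, 0.0641 and 0% in the control and 0.190, 0.243, 1.32 and 1.52% in the allergy groups. In these 3 populations the sets lay further apart than the library totals did, and the cause of the sets was not tested.

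Markers that the gates had not used had a UMI more often in their own gate than in a comparison gate. That gate was T for the B markers and B for the others. The values below are those of frequent markers, and others were sparser. Trac had a UMI in 41.9% of control and 41.6% of allergy T cells, and Pax5 in 27.6% and 30.9% of the B gate. Il13 had one in 2.36% and 2.48% of the ILC2 gate, and Mrc1 in 69.1% and 51.0% of the macrophage gate. In the T gate, Cd3g had a UMI in 94.2% of control and 95.8% of allergy cells, against 1.56% and 2.04% in the B gate. In the B gate, Cd79b had one in 97.4% and 99.2%, against 5.68% and 5.38% in the T gate. Il2rb, a receptor subunit that NK cells need, was present in 96.2% and 97.0% of the NK gate. Il7r, which sustains innate lymphoid cells, was present in 94.6% and 97.5% of the ILC2 gate, against 7.98% and 12.4% in the B gate. C1qc marked 97.0% and 93.1% of the macrophage gate, and S100a9 98.1% of the neutrophil gate in the allergy library and 96.1% in the control, although S100a9 also gave a UMI in 15.7% and 18.7% of B cells. Of the gate genes themselves, the lineage they should be absent from gave at most 2.78% (Cd79a in control T cells). The microglial markers P2ry12, Tmem119 and Sall1, which parenchyma would be rich in, summed to only 3.41 to 22.6 per 1000000 gene UMIs over all cells of a hashtag group. No gate took in 45.4% of control and 43.3% of allergy cells, and 86 and 84 cells entered more than 1 gate.

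The shares of the 6 gates overlapped between food allergy and control, and none passed the test. Neutrophils showed the widest gap upwards between the libraries, at 6.49% of cells in the allergy library and 3.06% in the control, a difference of 3.43 percentage points with a 95% Newcombe interval of 2.70 to 4.18, which covers counting error only. The difference fell to 1.65 points when every cell was thinned to 1000 UMIs, and was 1.89 points when each gate gene needed 2 UMIs. By hashtag, neutrophils made up 1.07, 2.45, 3.40 and 5.29% in the control and 9.13, 8.56, 2.07 and 5.17% in the allergy groups. Hashtags 4 and 5 of the allergy library stood above every control group, whereas hashtags 6 and 7 lay inside the control range, and the exact permutation test over the groups, two-sided, gave p = 0.2 and an adjusted p of 0.6 over the 6 gates. The smallest p that 4 groups against 4 can give is 0.0286. After adjustment over the 6 gates, a single gate could therefore not pass 0.05 even with fully separated groups. The permutation also did not take the sets into account.

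B cells were the gate with the widest gap downwards, at 10.1% against 13.7%, a difference of -3.57 points (-4.68 to -2.45). The control groups held 13.4, 19.6, 12.4 and 9.32% and the allergy groups 9.19, 9.23, 11.2 and 10.9%. Hashtag 5 of the control was the highest and the allergy groups lay close together at the lower end, where they overlapped with hashtag 7 of the control (exact permutation p = 0.114, adjusted p = 0.6). Without hashtag 5 of the control the difference was -1.54 points.

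Macrophages made up 2.25% of the allergy library and 3.52% of the control, and ILC2s 3.75% and 4.43%. Macrophage shares were 1.60, 0.524, 7.05 and 5.18% in the control and 4.06, 2.91, 1.32 and 0.878% in the allergy groups, so that each library spanned a wide range and the high-set groups were highest in both. ILC2 shares, at 2.79, 0.524, 8.08 and 6.62% and 4.82, 5.77, 2.54 and 2.03%, followed the same order, and neither gate separated the libraries (exact permutation p = 0.486 and 0.686). The ILC2 difference of -0.683 points turned to 0.42 without hashtag 6 of the control, to 0.08 without its hashtag 7 and to 0.18 without hashtag 7 of the allergy library, and was 0.55 within the low set.

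T cells took 27.6% of the allergy and 25.01% of the control library, and NK cells 7.84% and 6.22%. The T shares ran over 44.7, 12.8, 25.1 and 17.95% in the control and 25.8, 20.5, 39.3 and 28.5% in the allergy groups, with both the lowest and the highest group in the control. NK shares were 9.20, 3.96, 4.81 and 6.85% and 3.80, 6.62, 13.8 and 8.78%, with the groups of both libraries mixed in order (exact permutation p = 0.657 for T and 0.543 for NK). Without hashtag 5 of the control the T difference of 2.58 points became -1.64, and within the high set the NK difference of 1.62 became -0.64.

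**Figure D1:**
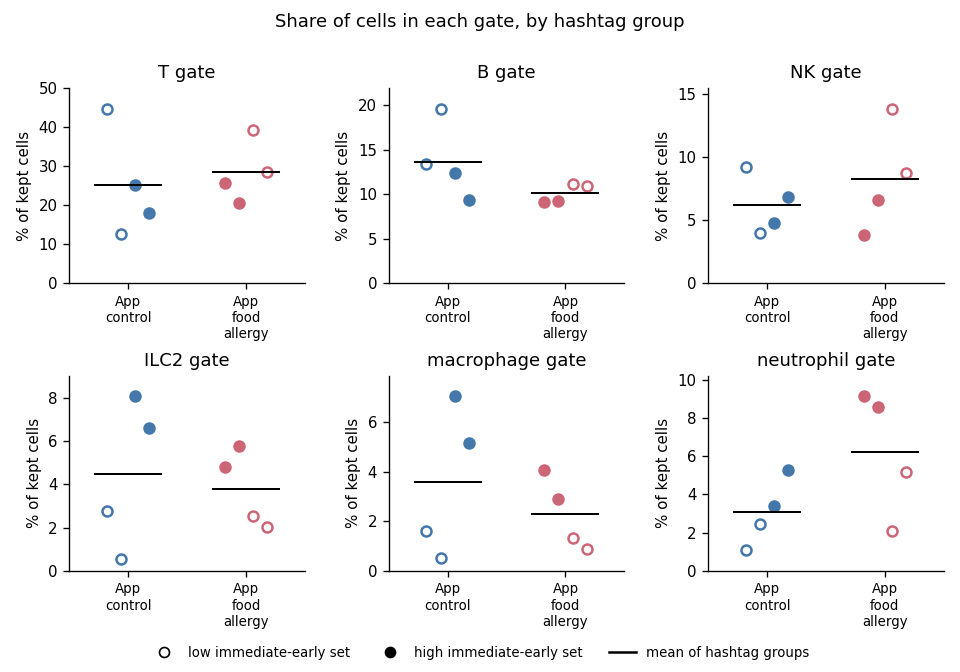
Share of kept cells in each of the 6 gates (% of the cells of a hashtag group, linear axis from 0), with 1 point per hashtag group, open for the low and filled for the high immediate-early set, and a line at the mean of the 4 groups. The ranges of App control and App food allergy overlapped in every gate, and neutrophils of 2 allergy groups, at 9.13% and 8.56%, stood above the control range of 1.07% to 5.29%.

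The cell types that carry an allergic response also overlapped between the libraries. Mast cells (Cpa3 and Cma1) made up 0.651% of the allergy and 0.478% of the control library, with 0.178, 0.175, 0.897 and 0.690% in the control groups and 0.698, 1.76, 0.0940 and 0.0462% in the allergy groups. Hashtag 5 of the allergy library held 29 of its 42 mast cells. Basophils numbered 54 against 36 cells, 0.837% against 0.537%, a difference of 0.300 points (0.0072 to 0.600). Eosinophils (Siglecf and Prg2) were nearly missing from both libraries, with 2 cells in the allergy and 1 in the control. Plasma cells came to 2.08% against 2.46%.

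The make-up of the T gate and the precursor populations were also close in the library totals. CD8 T cells (Cd8a without Cd4) made up 40.5% of the T gate in the allergy and 43.7% in the control library, CD4 T cells 11.8% and 12.5%, Trdc+ cells 10.3% and 8.65%, and cells with Foxp3, the factor of regulatory T cells, 3.03% and 3.10%. CD8 shares followed the sets, from 52.6, 60.7, 34.2 and 22.4% in the control to 26.04, 19.5, 52.4 and 53.4% in the allergy groups. Developing B cells (Cd79a and Vpreb3 without Ms4a1) took 10.8% and 10.9% of all cells, though hashtag 5 of the control alone stood at 30.05%. Monocytes (Ly6c2 and Ccr2 without C1qa) took 10.2% and 9.73%. Over these 10 populations every adjusted p of the exact permutation test was 1.0, with the smallest unadjusted p at 0.514. As with the gates, a single population could not have passed 0.05 after this adjustment. The 95% intervals of the differences reached from -6.58 to 0.081 points for CD8 T cells, from -0.32 to 3.67 for Trdc+ cells, and from -0.094 to 0.447 points of all cells for mast cells.

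Side by side with the WT libraries, the allergy library exceeded its control in neutrophils in both genotypes, by 3.43 points in App and by 8.36 points in WT, and held fewer B cells in both, by -3.57 and -7.07 points. Macrophages went down in the App libraries by 1.28 points and were 5.48 points higher in WT, where the WT food allergy library had 3 hashtag groups, only 1 of them in the low set, and lost 1552 of 6136 cells to the hashtag rule. Within the sets, as differences between means over hashtag groups, macrophages in WT differed by 0.44 points in the low and 3.67 in the high set, and in App by 0.033 and -2.63 points. Neutrophils differed by 0.52 and 7.90 points in WT and by 1.86 and 4.50 in App, and B cells by -3.50 and -5.18 in WT and by -5.43 and -1.63 in App. The difference between the genotypes in these shares was not tested.

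Gene levels were compared within each gate by edgeR's quasi-likelihood test on UMIs summed per hashtag group, with the adjusted p taken over all genes tested in that gate and a gene called when it was below 0.05. The T gate gave 17 called genes of 10776 tested (0.158%), 3 higher and 14 lower in food allergy. The NK gate gave 5 of 8550 (0.0585%), the macrophage gate 2 of 6526 (0.0306%), the neutrophil gate 2 of 7565 (0.0264%), and the B and ILC2 gates none of 9256 and 6658 (0% each), where 613 and 376 genes had an unadjusted p below 0.05 and DESeq2 called 13 and 6. Of the 26 calls, 8 were V segments of immunoglobulin genes. All 22 gene lists, which cover 76 pairs of a list and a gate, were without a called member.

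In T cells, food allergy went with higher Gclm and Tk1 and with lower levels of a set of short ribosomal protein mRNAs, of mt-Nd3 and of Malat1. Most of these calls needed the set term, since without it the gate gave 2 calls, Rps29 and the V segment Igkv15-103, which were also the only calls of the gate to hold in 16 of 16 alternative fits. Gclm (ENSMUSG00000028124, chr3:122245557-122270732 on GRCm38), the modifier subunit of the enzyme that makes the first step towards glutathione, was at 88.2, 84.7, 71.3 and 71.3 CPM in the control groups and 145, 138, 148 and 122 CPM in the allergy groups. Every allergy group stood above every control group, in both sets, as did 3.2% of the genes tested. The log2 fold change was 0.76 (SE 0.10, adjusted p = 0.0213), on library levels of 137 CPM (128 to 146) against 79.8 CPM (72.8 to 87.2) with exact Poisson intervals. The call held in 9 of 16 alternative fits, and was lost without the set term (adjusted p = 0.126) and when hashtag 4, 5 or 6 of either library was left out (0.0521 to 0.0923). Gclm was also fitted higher in the other 5 gates, with log2 fold changes of 0.53 in B, 0.75 in NK, 0.61 in ILC2, 0.60 in macrophage and 0.69 in neutrophil cells, none of them called (adjusted p of 0.531 or above). In the T gate of the remaining 6 libraries, Gclm ranged from 50.7 to 128 CPM, with the 2 App colitis libraries at 128 and 105 CPM and the 4 WT libraries at 50.7 to 74.9 CPM.

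Tk1, thymidine kinase of dividing cells, was at 12.1, 6.72, 16.4 and 15.3 CPM in the control and 37.3, 47.2, 22.1 and 20.6 CPM in the allergy groups. The groups did not overlap, and the highest allergy groups were those of the high set. The log2 fold change of 1.18 (SE 0.18, adjusted p = 0.0455) rested on 208 against 81 UMIs, and the library level of 31.5 CPM in food allergy compared with 15.4 to 22.1 CPM in the 6 libraries outside the comparison. Tk1 lost its call without the set term (adjusted p = 0.814) and when any 1 of the 8 hashtag groups was left out (0.058 to 0.130).

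The cell cycle list held no called gene. Of its 17 genes, all tested in the T gate, 16 were fitted above 0, with a median log2 fold change of 0.39 against -0.005 over all genes tested. Rrm2, a subunit of ribonucleotide reductase that supplies DNA synthesis, was at 34.6, 22.8, 30.9 and 31.4 CPM in the control and 81.4, 106, 72.1 and 42.3 CPM in the allergy groups, with no overlap (log2 fold change 1.19 (SE 0.22, adjusted p = 0.113)). Tyms, thymidylate synthase, was at 30.2, 29.6, 31.5 and 32.2 and 73.9, 51.6, 60.7 and 38.2 CPM, likewise without overlap. Cdk1, the kinase that starts mitosis, had 13.3, 8.06, 20.8 and 22.2 and 30.4, 63.4, 32.1 and 24.1 CPM, also without overlap. Of the 17 genes 4 were higher in every allergy group, as were 3.2% of all genes tested in the gate. Top2a, which untangles replicated DNA, had 32.6, 17.5, 58.04 and 42.2 and 78.9, 104, 49.99 and 49.8 CPM, and hashtag 6 of the control reached above the 2 lowest allergy groups. These genes were chosen after their values were seen. Genes of other cell types were also fitted above 0 in the T gate without a call, all 5 erythroid genes with a median of 1.46 and all 7 neutrophil genes with a median of 0.60. The erythroid genes summed to 387, 1.34, 1.26 and 2.30 CPM in the control and 3.10, 914, 578 and 4.03 CPM in the allergy groups, and the neutrophil genes to 2661, 8233, 2579 and 14199 and 6198, 30165, 952 and 10123 CPM. Neither sum separated the libraries, and their part in the cell cycle values was not tested. In the NK gate 15 of the 17 were fitted above 0 (median 0.25), whereas the medians were -0.35 in the ILC2 gate and -0.48 in the macrophage gate.

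Ccr7, S1pr1 and Klf2, 3 genes of the naive and recirculating state picked after their values were seen, stood lower in every food allergy group of the T gate without a call. Ccr7, the receptor that guides naive cells into lymph nodes, was at 41.1, 87.4, 36.6 and 50.6 CPM in the control and 17.4, 19.9, 22.9 and 19.6 CPM in the allergy groups. Each control group lay well above each allergy group, and the log2 fold change was -1.40 (SE 0.25, adjusted p = 0.103). Klf2, which keeps T cells in a recirculating state, was at 265, 329, 215 and 247 and 197, 193, 183 and 159 CPM, and S1pr1, the exit receptor under its control, at 47.9, 68.5, 42.9 and 52.9 and 34.8, 42.9, 39.99 and 32.2 CPM. Neither overlapped between the libraries, S1pr1 only just, as held for 1.09% of the genes tested in this direction, and their adjusted p values by edgeR were 0.257 and 0.394. Over the 19 tested genes of the list, 11 were fitted below 0 and 8 above, with a median of -0.20. The T gate of the allergy library had the lowest Ccr7 of the 8 libraries, 19.8 CPM against 28.2 to 72.1 CPM in the 6 outside the comparison, and the lowest Klf2, 182 CPM against 203 to 357 CPM. The 28.2 CPM was that of WT food allergy, whose hashtags 4, 5 and 7 had 17.1, 39.1 and 6.95 CPM of Ccr7. Against the WT control Ccr7 was fitted lower there as well, without a call (log2 fold change -0.86, edgeR adjusted p = 0.323). In B cells, Ccr7 was at 334, 229, 163 and 216 CPM in the control and 91.1, 61.2, 142 and 142 CPM in the allergy groups, which did not overlap either (1.19% of the genes tested in the B gate). Its log2 fold change there was -1.17 (SE 0.20, adjusted p = 0.396), and that between the WT libraries was -0.67 (edgeR adjusted p = 0.45).

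The 8 called ribosomal protein genes of the T gate were all lower in food allergy. Rps29 (ENSMUSG00000034892, chr12:69157722-69159186), a short protein of the small subunit, was at 4784, 4859.8, 4492 and 4390.4 CPM in the control groups and 3154, 3184, 3518 and 3353 CPM in the allergy groups. The lowest control group lay well above the highest allergy group, and the log2 fold change was -0.54 (SE 0.037, adjusted p = 0.000229), a call that held in 16 of 16 alternative fits. Rps28 was at 4734, 5055, 4011 and 4148 CPM against 2926, 2897, 3541 and 3448 CPM, with a log2 fold change of -0.54 (SE 0.043, adjusted p = 0.000552). Rpl38, at 4098, 4079, 3136 and 3118 against 2418, 2294, 3130.2 and 2919 CPM, overlapped between the libraries, since hashtag 6 of the allergy library exceeded hashtag 7 of the control, and within each set the control groups were the higher ones. Rps21, Rps27, Rpl39 and Rpl37 had log2 fold changes of -0.43, -0.36, -0.33 and -0.30, and Rpl37a, which was not among the 10 largest falls, of -0.24. Of these only Rps21 kept the libraries apart in every group, and the low-set groups of the control were the highest for all 5. Rps28 and Rpl38 were called in 15 of 16 alternative fits, losing the call without the set term (adjusted p = 0.338 and 0.814), and the other 5 were called in 11 to 13 of 16. Of the 80 ribosomal protein genes tested in the T gate, 79 were fitted below 0, with a median of -0.10 against -0.004 over the other genes.

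Rps29 varied more between the libraries of the series than between food allergy and control in App mice. Its T gate level was 788 CPM in the WT control, 1714 in WT food allergy, 4634 in App control and 3298 in App food allergy, and at 3158 to 4379 CPM in the 4 colitis libraries. Food allergy was therefore lower than control in the App libraries and higher than control in the WT libraries. Rps29 was fitted lower in all 6 gates, by -0.54 in B, -0.36 in NK, -0.21 in ILC2, -0.31 in macrophage and -0.48 in neutrophil cells, with adjusted p of 0.188 or above outside the T gate. The ribosomal list as a whole did not move together, since 67 of 80 were fitted below 0 in the B gate, but 16 in the NK gate and 12 in the ILC2 gate. What part the preparation of each library had in these levels was not tested.

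mt-Nd3, a subunit of complex I encoded in the mitochondrial genome, was at 61.99, 79.3, 71.3 and 75.9 CPM in the control and 42.9, 42.9, 37.9 and 47.8 CPM in the allergy groups, with no overlap and a log2 fold change of -0.78 (SE 0.12, adjusted p = 0.0455). The call held in 5 of 16 alternative fits, and was lost without the set term (adjusted p = 0.168), for cells in 1 gate only (0.0564), at a hashtag ratio of 5 (0.0636) and when any 1 of the 8 hashtag groups was left out (0.0522 to 0.144). It ranged from 11.8 CPM in the WT control to 74.1 CPM in WT acute colitis, and cells above 5% mitochondrial UMIs had been left out. Malat1, an abundant nuclear long noncoding RNA, was at 2851, 2758, 3173 and 3077 CPM against 2587, 2529, 2309.7 and 2394 CPM (log2 fold change -0.32 (SE 0.039, adjusted p = 0.0111)), a call held in 12 of 16 alternative fits and lost without the set term (adjusted p = 0.729) and without hashtag 4 or 5 of the control or hashtag 6 of the allergy library (0.0505 to 0.0886). The allergy library, at 2456 CPM, was below the 2711 to 3964 CPM of the 6 libraries outside the comparison. As references, Actb in the T gate was at 8936 CPM in food allergy and 8171 CPM in control, and Ppia at 3879.8 and 3433 CPM.

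Cd209a, a lectin of dendritic cells, was at 16.5, 8.06, 59.9 and 39.9 CPM in the control T gate and 6.83, 9.94, 0 and 5.03 CPM in the allergy T gate, with hashtag 5 of the allergy library above hashtag 5 of the control. Its fall (log2 fold change -2.52 (SE 0.39, adjusted p = 0.0455)) rested on 194 against 37 UMIs, and whether they came from dendritic cell RNA in T cell droplets was not tested. The call held in 7 of the 15 alternative fits that gave an adjusted p. It was lost without the set term (0.827), for cells in 1 gate only (0.0876), at a hashtag ratio of 5 (0.0664), and without hashtag 4, 5 or 6 of the control or hashtag 4 or 5 of the allergy library (0.0923 to 0.219). The other calls of the T gate were the gene model Gm29243, at 43.9, 40.3, 35.96 and 37.6 against 19.9, 21.1, 22.9 and 24.7 CPM, and 3 immunoglobulin V segments. Igkv15-103 was at 59.6, 47.04, 41.6 and 59.02 CPM in the control and 1.86, 0, 3.57 and 2.01 CPM in the allergy groups, and Ighv1-80 at 6.84, 6.72, 1417 and 2313 and 0.621, 0, 0.714 and 0 CPM. Ighv1-82 went up, from 1.21, 1.34, 3.79 and 0.766 to 1208, 258, 204 and 32.2 CPM. V segments are members of families of close copies, so reads can be split between them, and T cells do not express them. The 5 plasma cell genes (Jchain and others) summed in the T gate to 218, 241, 6484 and 10563 CPM in the control and 5787, 3014, 271 and 209 CPM in the allergy groups, and their part in these calls was not tested.

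**Figure D2:**
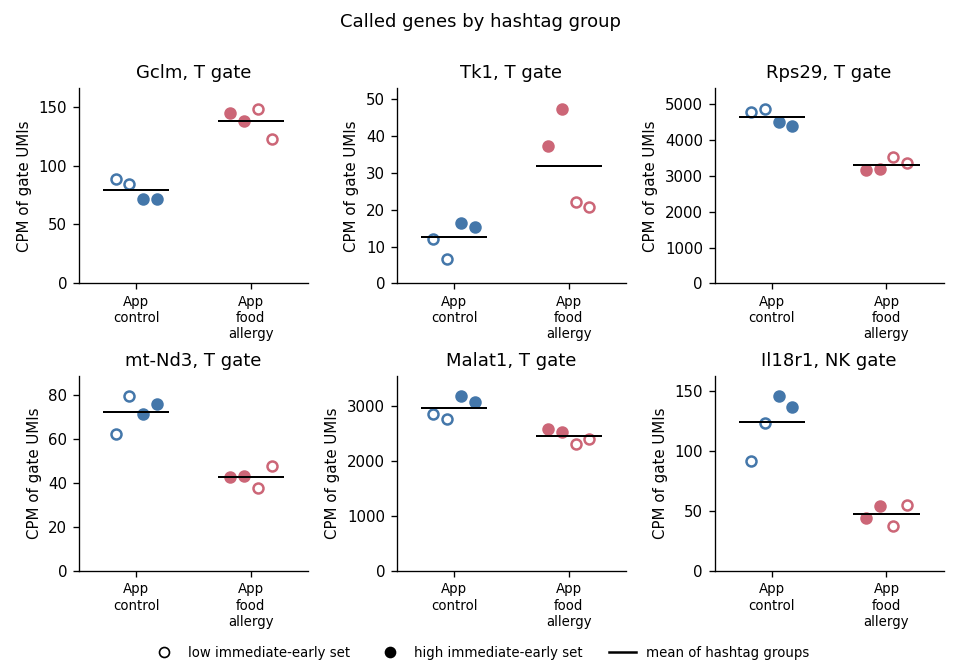
Levels of 6 called genes (CPM of the gate's UMIs, linear axes from 0) in each hashtag group, open points for the low and filled points for the high immediate-early set, and lines at the mean of 4 groups. Gclm and Tk1 were higher and Rps29, mt-Nd3 and Malat1 lower in the T gate of App food allergy, and Il18r1 was lower in its NK gate, with no overlap between the libraries in any of the 6 panels.

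With the T gate divided, the CD8 cells alone gave 6 calls of 9207 genes, among them Rps29 (log2 fold change -0.54, adjusted p = 0.0084) and Rps28 (-0.51, 0.0336), and the other 4 were V segments. The CD4 cells alone gave none of 6164, with 353 at an unadjusted p below 0.05, though the fold change of Rps29 was nearly the same (-0.51, adjusted p = 0.245). All kept cells without a gate gave none of 13964, with 729 at an unadjusted p below 0.05. These divisions were added after the data had been seen.

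In NK cells, Il18r1 stood out. Il18r1 (ENSMUSG00000026070, chr1:40465552-40500854), the chain of the interleukin 18 receptor that binds the cytokine and arms NK cells for interferon release, was at 91.3, 123, 145 and 136 CPM in the control groups and 43.99, 54.1, 37.1 and 54.4 CPM in the allergy groups. Even the lowest control group was well above the highest allergy group. The log2 fold change was -1.30 (SE 0.19, adjusted p = 0.0155), from 120.3 CPM (103 to 139) to 48.2 CPM (39.3 to 58.6) in the library sums, on 180 and 101 UMIs. The NK gates of the 6 libraries outside the comparison lay between 90.9 and 111 CPM. The call was lost without the set term (adjusted p = 0.0982) and when hashtag 5, 6 or 7 of the control or hashtag 4, 5 or 6 of the allergy library was left out (0.0542 to 0.102), and it held in the other 8 of 15 alternative fits.

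Effectors of NK cells were lower or spread out. Gzma, the granzyme most abundant in these cells, was at 1356, 2408, 2370.2 and 2263 CPM in the control and 1239.8, 1365, 1223 and 1205 CPM in the allergy groups. Hashtag 4 of the control fell among the allergy groups while its other 3 groups stood far above them, and the log2 fold change of -0.72 (SE 0.14, adjusted p = 0.177) was not called. At 1251 CPM the allergy library was the lowest of the 8, where the 6 libraries outside the comparison had 1358 to 2464 CPM. Prf1, the pore-forming perforin, had 177, 181, 226 and 187 and 116, 171, 135 and 142 CPM, without overlap in a gate where 1.7% of genes were lower in every allergy group (log2 fold change -0.41 (SE 0.15, adjusted p = 0.82)). Gzmb, at 1092, 522, 404 and 422 and 204, 248, 1338 and 921 CPM, followed the sets, with the low-set groups highest in both libraries. Ifng, the cytokine that interleukin 18 helps to induce, was at 40.8, 47.1, 116 and 53.03 and 24.00, 99.9, 35.4 and 22.02 CPM, on 91 and 92 UMIs. Psme2, an activator of the immunoproteasome, was higher in every allergy group, at 427, 392, 404 and 346 against 532, 476, 455 and 482 CPM, as were 1.6% of the genes tested (log2 fold change 0.31 (SE 0.11, adjusted p = 0.82)). Of the 19 tested genes of the cytotoxic list 12 were fitted below 0 (median -0.11), and of the 16 of the naive and recirculation list 13 (median -0.31), against -0.002 over all genes.

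Of the other 4 calls of the NK gate, 3 were high in the same 2 control groups. Prg2, a granule protein of eosinophils, was at 0, 0, 136 and 78.3 CPM in the control groups and at 0 in all 4 allergy groups, on 73 and 0 UMIs. Against the floor of 3 counts over the gate it was at least 34.1-fold lower in food allergy. Its call held in 10 of the 14 alternative fits that gave an adjusted p, and was lost without the set term (0.958) and without hashtag 6 of the control or hashtag 4 or 5 of the allergy library (0.0674 to 0.221). The V segments Igkv8-27, at 5.83, 3.63, 27836 and 15551 CPM in the control, and Ighv1-26, at 1.94, 0, 1492 and 2179 CPM, had no UMI in the allergy groups. The 5 plasma cell genes summed to 328, 210.3, 9752 and 6293 CPM in the NK gate of the control and 419.9, 358, 353 and 284 CPM in the allergy library, high in hashtags 6 and 7 of the control as these 3 genes were. Ighv1-82 went the other way, from 0, 0, 0 and 2.53 to 43.99, 41.6, 23.6 and 31.1 CPM. The part of plasma cell RNA in these calls was not tested.

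The response of App mice was set against that of WT mice by the difference of the 2 differences in 1 edgeR model over the 4 libraries. The T gate gave 139 such genes of 11735 (1.18%), the NK gate 61 of 9702 (0.629%), the B gate 31 of 10546 (0.294%), the ILC2 gate 17 of 8776 (0.194%), the neutrophil gate 10 of 9183 (0.109%) and the macrophage gate 1 of 9506 (0.0105%). All but 6 in the T gate and 1 in the NK gate were below 0, that is, lower in the App than in the WT response, and ribosomal protein genes made up 28 of the 139, 17 of the 61, 9 of the 31, 13 of the 17 and 4 of the 10. For Rps29 in the T gate the difference was -1.84 (SE 0.084, adjusted p = 3.2e-09), composed of -0.54 in App and 1.30 in WT. The WT control had the lowest Rps29 level of all libraries in this gate, at 788 CPM. For Gclm it was 0.90 (SE 0.18, adjusted p = 0.0226), composed of 0.76 in App and -0.13 in WT. For Il18r1 in the NK gate it was -1.24 (SE 0.27, adjusted p = 0.0398), with -1.30 in App and -0.04 in WT. Il18r1 was at 106, 94.0 and 53.9 CPM in hashtags 4, 5 and 7 of WT food allergy. The last, its only low-set group, lay inside the App food allergy range of 37.1 to 54.4 CPM. For Tk1 no difference between the genotypes passed the test (1.04 (SE 0.65, adjusted p = 0.64)). In the neutrophil and macrophage gates this model had 12 hashtag groups, since groups with under 10 gate cells were left out. No low-set WT group remained in the neutrophil gate, and no low-set WT food allergy group in the macrophage gate. The App and WT responses of these gates therefore rest on unlike sets. Each of the 4 conditions is 1 library, so that here too library and condition cannot be told apart.

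**Figure D3:**
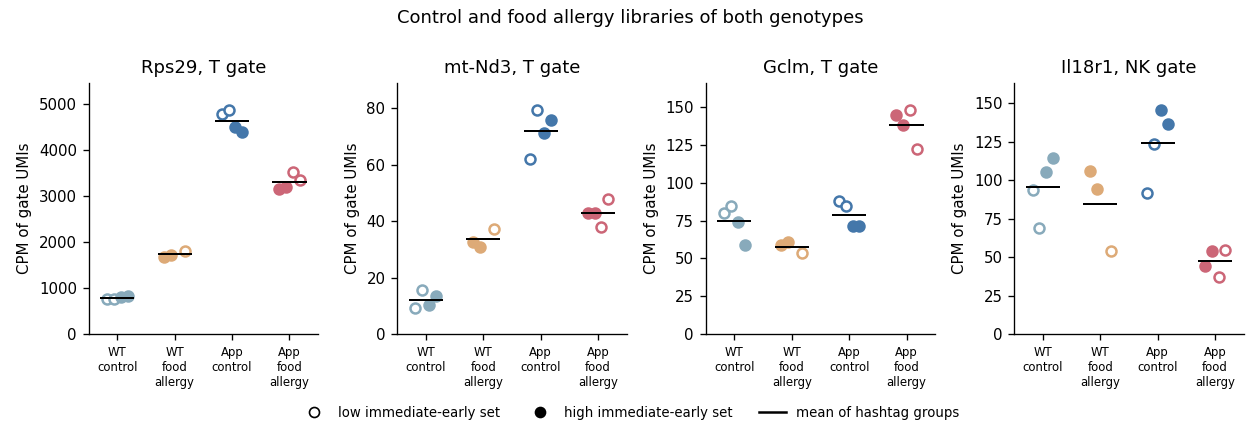
Levels of Rps29, mt-Nd3 and Gclm in the T gate and of Il18r1 in the NK gate (CPM of the gate's UMIs, linear axes from 0) in the control and food allergy libraries of WT and App mice, 1 point per hashtag group (3 groups in WT food allergy), open for the low and filled for the high immediate-early set, lines at the means. Rps29 and mt-Nd3 differed between all 4 libraries and moved in opposite directions in WT and App, whereas the mean of the groups was highest for Gclm and lowest for Il18r1 in App food allergy.

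In the B gate, no transcript of the allergic isotype was seen. Ighe had 0 UMIs in both libraries, which allows up to 1.05 CPM in the control and 1.22 CPM in the allergy library, counting 3 UMIs as the floor. Igha, the constant gene of IgA, was at 9.38, 9.08, 7.13 and 9.38 CPM in the control and 958, 4027, 12.4 and 10.02 CPM in the allergy groups. All allergy groups exceeded all control groups, as did 1.03% of the genes tested, but hashtags 6 and 7 by little, and the log2 fold change of 4.97 (SE 1.78, adjusted p = 0.724) was not called. Hashtags 6 and 7 of the allergy library held 4 and 7 Igha UMIs, against 5, 8, 5 and 7 in the control groups. Ighg1 was at 0, 0, 0 and 1319 and 1.45, 339, 3.09 and 0 CPM, high in 1 group of each library. Ighg2c was at 3.75, 3.40, 18.5 and 1739.6 CPM in the control and at 0 in all allergy groups, at least 378-fold lower against the same floor, nearly all of it from hashtag 7. Ighm, the isotype of unswitched cells, was at 1428, 1994, 2449.6 and 4892 and 7153, 2057, 2319 and 1824 CPM (log2 fold change 0.25 (SE 0.37, adjusted p = 0.942)). The plasma cell genes summed in this gate to 3798, 8004, 8180.2 and 24524 CPM in the control and 24005, 22469.9, 8206 and 5668 CPM in the allergy groups, so that a few antibody-secreting cells or their RNA weigh on any secreted isotype, and that weight was not tested.

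Ighd, which marks mature naive B cells, was at 139, 169, 144 and 87.1 CPM in the control and 31.8, 54.5, 80.3 and 125 CPM in the allergy groups, with hashtag 7 of each library running against the rest. Vpreb3, of B cell precursors, was at 1402, 1586, 627 and 469 and 1051, 977, 1875 and 1407 CPM. In the high set both allergy groups exceeded both control groups, and in the low set the libraries overlapped. Of the 12 genes of MHC class II presentation 10 were fitted below 0 (median -0.20), and of 24 interferon-stimulated genes 18 were fitted above 0 (median 0.24), against a median of -0.009 over all genes.

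ILC2s and T cells did not show a called rise in type 2 cytokines. Il4 in the ILC2 gate was at 26.2, 0, 59.3 and 30.5 CPM in the control and 80.6, 59.6, 62.3 and 57.8 CPM in the allergy groups, on 37 and 59 UMIs. Hashtag 6 of the control fell among the allergy groups and the other 3 control groups were below them, and the log2 fold change of 0.76 (SE 0.32, adjusted p = 0.839) was not called. Il5, the growth factor of eosinophils, was at 0, 38.5, 7.73 and 198 CPM and 3.66, 31.2, 0 and 0 CPM, on 69 and 12 UMIs, and hashtag 7 of the control carried most of it. Il13 was at 170.2, 193, 10.3 and 9.15 and 3.66, 22.7, 0 and 0 CPM, on 38 and 9 UMIs, with the low-set groups of the control highest. The fits of the ILC2 and macrophage gates left out hashtag 5 of the control, which had 9 cells in each.

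Areg, the epidermal growth factor family member by which ILC2s act on tissue repair, was at 98.2, 154, 314 and 311 CPM in the control and 491, 397, 10.4 and 92.5 CPM in the allergy groups, highest in the high-set groups of both libraries (log2 fold change 0.26 (SE 0.33, adjusted p = 0.948)). Calca, which encodes calcitonin gene-related peptide, a neuropeptide that ILC2s make and respond to, had the widest gap among the genes described in this gate. It was at 445, 616, 2394 and 6010.1 CPM in the control and 282, 528, 125 and 301 CPM in the allergy groups. Hashtags 6 and 7 of the control stood far above all other groups, the ranges overlapped at hashtag 5 of the allergy library, and the log2 fold change was -2.62 (SE 0.51, adjusted p = 0.491). In WT the change was in the same direction and the genotypes did not differ by the test (-0.14 (SE 1.11, adjusted p = 1)). Rora, a factor that ILC2s depend on, was lower in every allergy group, at 223, 154, 255 and 488 against 121, 139, 104 and 116 CPM, as were 3.59% of the genes tested (log2 fold change -1.34 (SE 0.28, adjusted p = 0.496)). Tap1 and Psmb10, of MHC class I peptide supply, were higher in every allergy group, at 65.5, 38.5, 61.8 and 57.9 against 117, 82.3, 145 and 86.7 CPM and 131, 38.5, 137 and 109.8 against 231, 150.4, 218 and 214 CPM, as were 2.51% of the genes tested. Over the 17 tested genes of the type 2 list, 9 were fitted above 0 and 8 below, with a median of 0.02.

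In the T gate, Il4 was at 12.5, 6.72, 4.42 and 11.5 CPM in the control and 3.11, 6.83, 7.86 and 11.6 CPM in the allergy groups, fully overlapping (log2 fold change -0.37 (SE 0.39, adjusted p = 0.868)). Il5 had 1 UMI in the control and 0 in the allergy library, and Il13 7 and 1. Areg was at 3.22, 1.34, 33.4 and 147 and 36.02, 75.8, 0 and 2.01 CPM, high in the high-set groups of both libraries. Il17a, a cytokine of γδ T cells at the meninges, was at 0.403, 0, 80.8 and 2462 and 81.4, 137, 0 and 0 CPM, so that hashtag 7 of the control held almost all of the 3341 control UMIs. Of 14 tested type 2 genes in the T gate 10 were fitted below 0 (median -0.30), and the other 10 of the 24 did not reach the 30 UMIs that a test required.

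**Figure D4:**
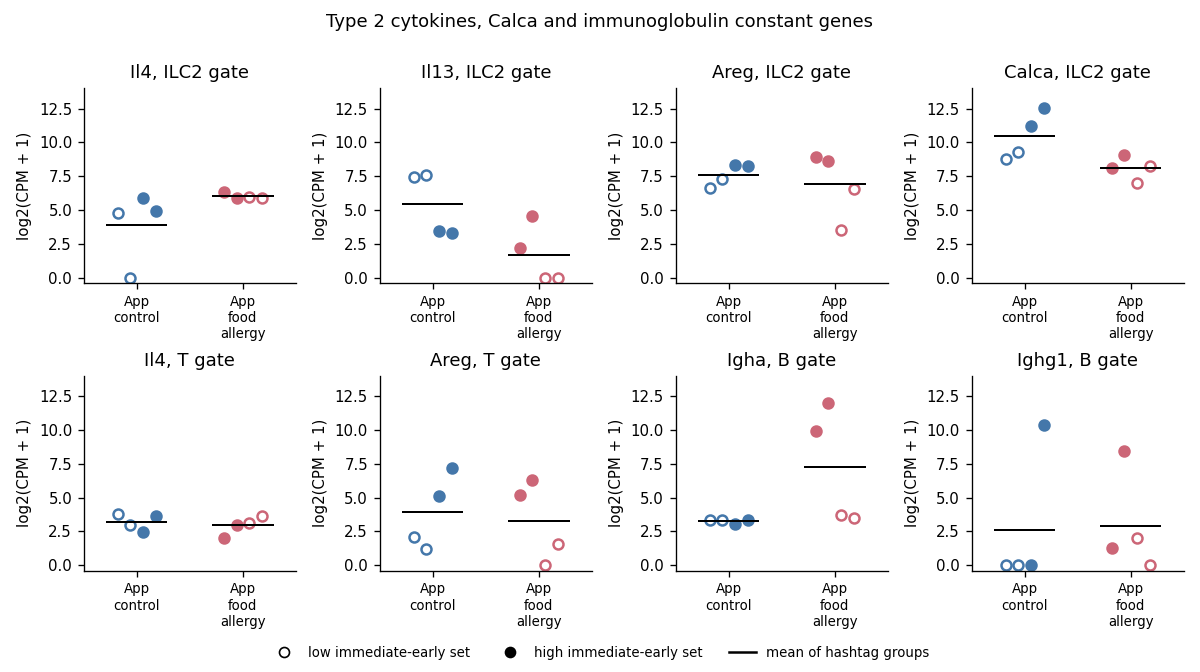
Type 2 cytokines, Areg, Calca and immunoglobulin constant genes on a log scale, log2(CPM + 1), by hashtag group, open points for the low and filled points for the high immediate-early set, lines at the mean of the log values of 4 groups. Il4 of the ILC2 gate had overlapping libraries, Igha of the B gate was high in hashtags 4 and 5 of App food allergy, and Areg was highest in the high-set groups of both libraries.

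The macrophage gate held markers of border macrophages and of microglia, the resident macrophages of the brain tissue, and the microglial marker levels differed by set. The microglial markers P2ry12, Tmem119 and Sall1 summed to 299, 345, 86.3 and 21.1 CPM in the control and 58.3, 85.7, 1403 and 1427 CPM in the allergy groups. The low-set groups were highest in both libraries, and those of the allergy library highest of all. Microglia were not counted as cells, and their part in the levels of this gate was not tested. Sparc, a matrix protein that microglia express strongly, was at 221, 229.9, 12.6 and 12.3 CPM in the control and 38.9, 40.6, 1123 and 995 CPM in the allergy groups. Its log2 fold change of 1.99 (SE 0.28, adjusted p = 0.0322) passed the test. The allergy groups were higher within each set, although the libraries overlapped across the sets and the low-set groups in the fit held 27 control and 14 and 19 allergy cells. The call held in 6 of 15 alternative fits. It was lost without the set term (log2 fold change 3.23, adjusted p = 0.9995), with at least 30 cells per group (0.99), at a hashtag ratio of 5 (0.344), for cells in 1 gate only (0.079), and without hashtag 4 of the control or any 1 of the 4 allergy groups (0.116 to 0.779). Trem2, at 1830.3, 1035, 192 and 121 and 214, 185, 2939 and 3246 CPM, and Cst7, at 389, 172, 30.6 and 22.9 and 22.7, 27.1, 2642 and 2356 CPM, were likewise highest in the low-set groups of the allergy library and were not called.

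Ly6g, a surface protein of neutrophils, was the other call, at 0, 0, 0 and 3.52 CPM in the control and 84.2, 58.7, 0 and 26.2 CPM in the allergy groups (log2 fold change 5.03 (SE 0.70, adjusted p = 0.0322), on 2 and 41 UMIs). The 7 neutrophil genes summed to 195, 459.8, 91.7 and 15333 CPM in the macrophage gate of the control and 23895, 18432, 149 and 23705 CPM in the allergy groups, and all 7 were fitted higher in food allergy. Their part in the call was not tested, and the call held in 6 of 13 alternative fits. It was lost without the set term (adjusted p = 0.9005), with at least 30 cells per group (0.282), at a hashtag ratio of 5 (0.062), and without hashtag 4 of the control or hashtag 5, 6 or 7 of the allergy library (0.1 to 0.219).

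Border macrophage genes were lower in food allergy in the fit, without a call. Cd163, a scavenger receptor of perivascular and meningeal macrophages, was at 299, 0, 171 and 142 CPM in the control, where hashtag 5 with 9 cells was at 0, and at 58.3, 63.2, 66.04 and 105 CPM in the allergy groups. Apart from the omitted group the control lay above the allergy groups (log2 fold change -1.47 (SE 0.24, adjusted p = 0.0949)), as did 2.44% of the genes tested. F13a1, a transglutaminase of the same cells, was at 532, 287, 480.3 and 623 and 278, 320.4, 281 and 288 CPM (log2 fold change -0.88 (SE 0.22, adjusted p = 0.892)). Of the 17 tested border genes 13 were fitted below 0 (median -0.17), and of 13 genes of alternative activation 10 (median -0.57), with Clec10a and Cd36 lower in every allergy group. Mrc1, at 831, 86.2, 547 and 336 and 349.7, 393, 561 and 314 CPM, and Apoe, at 29596, 15922, 14584 and 10184 and 11742, 7806, 14892 and 12501 CPM, overlapped. H2-Aa, of MHC class II, was at 2947, 5346, 9937 and 5674 and 10366, 11479, 4243 and 1244 CPM, highest in the high-set groups of the allergy library. Psme2, 1 of the 1.73% of genes higher in every allergy group, was higher here as in the NK gate.

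In the neutrophil gate, both calls were V segments, Igkv15-103 (lower, 134, 43.9, 20.98 and 54.9 against 0.696, 0, 0 and 2.33 CPM) and Igkv4-50 (0 in the control and 13.2, 22.2, 10.4 and 20.98 CPM in the allergy groups, at least 12.4-fold higher against the floor). Neutrophils had a median of 8902 UMIs in the control and 5212 in the allergy library, and the low-set groups were the shallower ones in both. Mature-stage Mmp9 was at 1854, 1053, 629 and 754 and 906, 848, 1067 and 1665 CPM, Ly6g at 759, 557, 405 and 511 and 897, 786, 456 and 865 CPM, and Camp, a granule peptide made at an earlier stage, at 4780.3, 18647, 14832 and 14624 and 15906, 17190.4, 23911 and 13527 CPM. The ranges of all 3 overlapped and none was called (log2 fold changes 0.31, 0.64 and 0.48).

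Inflammatory genes of neutrophils were high in hashtags 4 and 5 of the allergy library. Il1b, the cytokine interleukin 1β, was at 313, 70.2, 538 and 654 CPM in the control and 1449, 2723, 82.8 and 282 CPM in the allergy groups, so that its 2 high-set groups exceeded every control group and its low-set groups did not (log2 fold change 1.40 (SE 0.41, adjusted p = 0.619)). Cxcl2, a chemokine for neutrophils, was at 112, 65.8, 1122 and 1451 and 2024, 3113, 10.4 and 413 CPM, in the same order. Of 17 tested inflammatory mediators 14 were fitted above 0 (median 0.56), and of 25 interferon-stimulated genes 24 (median 0.52), against 0.03 over all genes, with no called gene and no gene of either list higher in every allergy group, where 0.886% of all genes tested were. Olfm4, which marks a subset of neutrophils, was at 0, 325, 378 and 410.0 and 9.05, 59.2, 0 and 74.6 CPM, low in hashtag 4 of the control as in the allergy library (log2 fold change -2.89 (SE 0.60, adjusted p = 0.203)). None of the granule and maturity genes was lower in every allergy group, where 0.925% of all genes tested were.

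**Figure D5:**
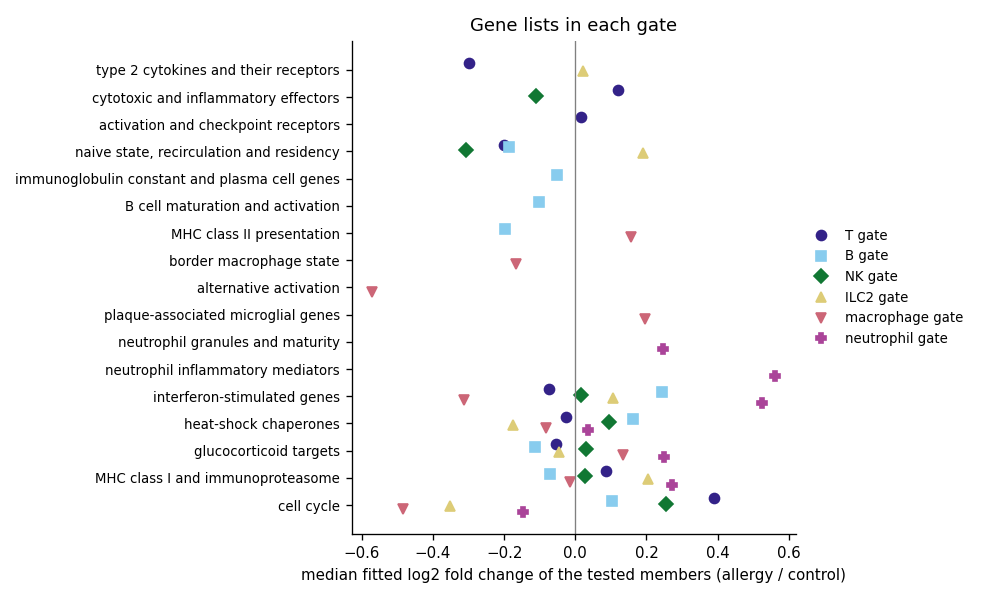
Median fitted log2 fold change (App food allergy over App control) of the tested members of each gene list, with 1 symbol per gate in which the list was examined and a line at 0. The cell cycle list of the T gate (0.39) and the inflammatory and interferon-stimulated lists of the neutrophil gate (0.56 and 0.52) lay above 0 and the alternative activation list of the macrophage gate (-0.57) below it, and no list held a called gene.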

How the data were processed

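Per the labels and the study's methods, each library was made with 10x 5′ v2 chemistry from sorted cells stained with TotalSeq hashtags. The authors deposited matrices of UMI counts on mm10, the GRCm38 mouse genome. The stated software is Cell Ranger 6.1.2, whereas the matrix header gives Cell Ranger 4 as its software version. The matrices listed 708173 barcodes for App control and 711899 for App food allergy, of which 7268 and 7001 reached the UMI minimum for a cell. The choice of cells therefore rests on the filters applied here. The deposited counts were used without normalization. The members and gene lists were chosen with earlier results of these data known.

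UMIs were summed per hashtag group and gate, groups with under 10 gate cells and genes with under 30 UMIs were left out, and edgeR 4.0.16 (TMM, glmQLFit and glmQLFTest, R 4.3.3) was fitted with the set and the condition, with Benjamini-Hochberg adjustment at 0.05. The interaction model took all 4 control and food allergy libraries. Shares were compared by two-sided exact permutation tests over hashtag groups, beside Clopper-Pearson and Newcombe intervals at 95%, which like the Poisson intervals cover counting error only. Doublets were handled by the hashtag rule alone. The fit was also run on counts simulated from these libraries. It recovered 57% of genes changed by a fold of 2 in the T gate and 15% in the macrophage gate. At a fold of 4 it recovered 88% and 71%. False calls were 19 of 164 in the T, 12 of 113 in the B and 9 of 131 in the NK gate. They were 11 of 113 in the ILC2, 17 of 103 in the macrophage and 17 of 120 in the neutrophil gate. In every gate the false share was above the threshold of 0.05. Calls with an adjusted p close to 0.05 are therefore less certain than that value states. Named genes were the 10 largest called rises and falls of each gate without V, D or J segments, Gm and Rik models and gate genes, and a fixed set of cytokine, isotype, granzyme, macrophage and neutrophil genes. Ccr7, S1pr1, Klf2, Tyms, Rrm2, Cdk1, Top2a, Il17a, Ighd, Ighg2c, Vpreb3, Prf1, Gzmc, Psme2, Calca, Rora, Tap1, Psmb10, Cd163, F13a1, Cst7, Olfm4 and Cxcl2 were chosen after their values were seen. Coordinates are those of GENCODE vM21, which matched 32129 of 32245 gene IDs. Of the marker genes fixed for these lists, 1 was left out of all values reported here.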

Additional observations from a re-analysis of the deposited data

Results flagged for a closer look

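Of 156 groups of 4 hashtag groups examined for a sample far from the other 3, 16 were flagged (10.3%), where chance flags about 1 in 20. Where 3 of 4 values were 0 and the other was not, the flag was certain, as for Il5 and Il13 in the T gate. Some of the genes were also chosen after their values were seen, so that the share flagged cannot be read as an excess over chance. In the shares, developing B cells reached 30.1% of hashtag 5 of the control, and the only eosinophil of the control made 0.0593% of its hashtag 4.

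In the T gate, Il17a was at 2462 CPM in hashtag 7 of the control, Il5 at 0.767 CPM in the same group and Il13 at 0.621 CPM in hashtag 4 of the allergy library, the last 2 from 1 UMI each. In the B gate, Ighg1 was at 1319 CPM and Ighg2c at 1739.6 CPM in hashtag 7 of the control, Ighg1 at 339 CPM in hashtag 5 and Ighm at 7153 CPM in hashtag 4 of the allergy library, and Igha was low at 7.13 CPM in hashtag 6 of the control. In the NK gate of the control, Gzma was low at 1356 CPM and Gzmc high at 1346 CPM in hashtag 4, and Ifng high at 116 CPM in hashtag 6. In the ILC2 gate, Il5 and Il13 stood at 31.2 and 22.7 CPM in hashtag 5 of the allergy library. In the macrophage gate, Cd163 was at 105 CPM in hashtag 7 of the allergy library.

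The difference between food allergy and control was not the same in the App and the WT libraries, by edgeR's interaction test, in 14 of the called genes other than V segments. On the log2 scale, as the App minus the WT response, the T gate gave -1.84 for Rps29, -1.97 for Rps28, -1.96 for Rpl38, -1.64 for Rps21, -1.34 for Rps27, -1.52 for Rpl39, -1.64 for Rpl37, -1.45 for Rpl37a, -2.41 for mt-Nd3, -0.40 for Malat1, -3.49 for Cd209a, -2.16 for Gm29243 and 0.90 for Gclm. The NK gate gave -1.24 for Il18r1. Their adjusted p values ran from 2.8e-09 (Rps28) to 0.0398 (Il18r1). Of the V segments called in the T gate, Igkv15-103 (-10.5, adjusted p = 0.00828) and Ighv1-82 (12.4, adjusted p = 0.0230) passed the interaction test too. In the WT libraries the 8 ribosomal protein genes and mt-Nd3 were higher in food allergy than in control, by 0.99 (Rps27) to 1.63 (mt-Nd3). The T gate of the WT control was the lowest of all libraries in Rps29, Rps28, Rpl38, Rpl39 and mt-Nd3. Rps29 was at 788 CPM there, 1714 CPM in WT food allergy and 3158 to 4634 CPM in the others. mt-Nd3 was at 11.8, 32.2 and 43.3 to 74.1 CPM in the same order. The low WT control level enters these differences, and its source was not tested. Each condition was 1 library, so that library and condition cannot be told apart.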

How the results depend on the processing

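Alternatives varied the cell filters, the gates, the set term, normalization, low-count filters and tool, and left out hashtag groups. Gate share differences kept their sign in 58 of 60 alternatives besides the left-out groups. The exceptions were NK in the high set (-0.64 points) and ILC2 in the low set (0.55). Thinning every cell to 1000 UMIs gave 1.35 points for T, -2.73 for B, 0.80 for NK, -0.25 for ILC2, -1.09 for macrophages and 1.65 for neutrophils, and 2 UMIs per gate gene gave -0.0025 for ILC2, -2.19 for B and 1.89 for neutrophils. Leaving out 1 hashtag group gave -1.64 to 9.19 points for T, -5.1 to -1.54 for B, 0.44 to 2.92 for NK, -2.03 to 0.42 for ILC2 (also 0.08 and 0.18), -2.31 to -0.2 for macrophages and 2.58 to 4.31 for neutrophils. Of 40 alternatives for the other populations 7 changed sign. In the high set CD4 T cells went to 1.44, Foxp3+ cells to 0.51 and developing B cells to 3.63. In the low set mast cells went to -0.11 and monocytes to -1.34, and thinning every cell to 1000 UMIs gave 0.66 for CD4 T cells and -0.23 for monocytes.

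Counts of called genes moved more. Without the set term 2, 1, 0 and 1 genes were called in the T, NK, macrophage and neutrophil gates. DESeq2 called 47 in T, 13 in B, 6 in ILC2, 8 in macrophage and 1 in neutrophil cells. With no low-count filter the counts were 387, 245, 85, 102, 101 and 47 in the T, B, NK, ILC2, macrophage and neutrophil gates. With edgeR's filterByExpr they were 2 in NK and 1 in neutrophil cells, and RLE scaling gave 1 in neutrophil cells. Cells in 1 gate only gave 9 in NK and 1 in ILC2, and a hashtag ratio of 5 gave 10 in NK, 2 in ILC2 and 0 in macrophages. At least 30 gate cells gave 0 in macrophages and 7 in neutrophils. CD4 cells, CD8 cells and all kept cells gave 0, 6 and 0 in place of the 17 of the T gate.

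Leaving out 1 hashtag group gave 5 to 31 calls in T (5 without hashtag 4 and 31 without hashtag 7 of the control), 0 to 4 in B (4 without hashtag 6 of the control), 3 to 13 in NK (13 without hashtag 7 of the allergy library), 0 to 41 in ILC2 and 0 to 47 in macrophages (41 and 47 without hashtag 6 of the control), and 1 to 14 in neutrophils (14 without hashtag 4 of the allergy library). The interaction without the set term called 84 genes in T, 17 in B, 9 in ILC2 and 0 in neutrophil cells. The 16 called genes other than V segments, Gm29243 and Rpl37a kept their direction, and lost the call in 24 of 122 alternatives and in 60 of 125 fits without 1 group.

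No paired analysis was possible because each library carries the same replicate number and the labels do not say that a hashtag number links samples of different libraries. Depth limits the low genes, since a gene with under 30 UMIs in a gate was not tested. The cause of the changes in counts was not tested, apart from the number of genes and groups that each alternative itself removes or adds.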

Other observations

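Calca was also counted in the macrophage gate, at 12.98, 0, 61.2 and 104 CPM in the control and at 0 in all 4 allergy groups, at least 16.9-fold lower against a floor of 3 counts over the gate (log2 fold change -7.18 (SE 1.03, adjusted p = 0.0949)). C1qb, a macrophage gene, was at 0, 1.13, 41.4 and 65.7 CPM in the B gate of the control and 1.45, 1.33, 0 and 0 CPM in that of the allergy library, and its response there differed between the genotypes by the interaction test (-8.47 (SE 1.05, adjusted p = 0.00255)). Granule genes made early in neutrophil development, Mpo and Elane, were at 0, 3863, 1813 and 418 and 22.3, 4420.2, 2716 and 853 CPM in the control and 1582, 1784, 528 and 2765 and 2775, 2259.7, 2268 and 3320.1 CPM in the allergy groups, with hashtag 4 of the control far below the rest. Retnlg, of mature neutrophils, was highest in that group, at 35205 CPM against 6744 to 12602 CPM in the other control groups and 13435 to 24085 CPM in the allergy groups. The 5 erythroid genes summed over all cells to 813, 5268, 535 and 386 CPM in the control and 107, 119.6, 227 and 550.0 CPM in the allergy groups. These genes were chosen after their values were seen, and no explanation was tested.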
